A study of Mus musculus with 9 samples.

Results

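The genes described here build, acidify and fill the lysosome. They include subunit genes of the vacuolar proton pump (V-ATPase) whose symbols begin with Atp6v or Atp6ap. Pump subunit genes under other symbols were not included. The other genes encode a set of lysosomal membrane proteins, glycosidases, sphingolipid activators and a lipase, the MiT-TFE transcription factors, and Gpnmb. The members were every entry of the expression table whose symbol begins with Atp6v or Atp6ap, other than pseudogenes, with at least 10 counts summed over the 9 libraries, plus 19 genes listed by name. Of 26 such Atp6 entries 19 reached that count, which gave 38 members among 26770 entries. The 7 entries left out had 0 to 8 counts in total, such as Atp6v1b1 with 4 counts and Atp6v0a4 with 2. All 38 members passed the filter on low counts.

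RNA was sequenced from wild-type mouse monocytes derived from the spleen, in 3 groups of 3 libraries. The untreated libraries came from cells given DMSO, the solvent, which the sample labels put at dilutions of 1 in 1000, 1001 and 1002. The LPS libraries came from cells given lipopolysaccharide (LPS), the bacterial membrane component sensed by Toll-like receptor 4, at 40 ng/ml for 5 hours. The LPS with octanal libraries came from cells primed with a low dose of LPS and then given the aldehyde octanal at 20 µM, for 18, 19 and 20 hours according to the sample labels. The series text gives a single time of 18 hours for octanal and a single dilution of 1 in 1000 for DMSO, and these steps of 1 between samples were not used in any test. The series title names the olfactory receptor Olfr2, for which octanal is a known ligand. For the octanal group the sample labels list no LPS dose in ng/ml and no time of LPS. Octanal and any difference in LPS dose, LPS time, time in culture or solvent cannot be told apart in these groups. The sample labels list a DMSO dilution for the untreated libraries only. Between the LPS and untreated groups, LPS and any difference in solvent or time in culture likewise cannot be told apart. No group received octanal without LPS. No sex, age or number of mice is given, and nothing in the labels ties a replicate to its own mouse or culture. The p-values therefore cover only the spread between these samples, which may be technical. Libraries of the LPS with octanal group are called octanal libraries below.

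The V-ATPase has a cytosolic V1 sector that hydrolyses ATP and a membrane V0 sector that carries protons into the lumen, and the acid pH it makes is what lysosomal hydrolases need to work. TFEB, TFE3 and MITF are basic helix-loop-helix factors that bind CLEAR elements, E-box sites of the CACGTG type, in front of many lysosomal genes. They are held in the cytosol when mTORC1 phosphorylates them at the lysosome surface and enter the nucleus on starvation or lysosomal stress. In macrophages lysosomes break down engulfed cells, lipoproteins and microbes.

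Total counts were 29594291 to 38388421 per library. Levels are CPM, the usual scaling of counts to a common total, here on TMM-scaled library totals. Fold changes are log2 values from edgeR's quasi-likelihood fit with a standard error (SE). A gene was called when its adjusted p over all 15447 tested genes was under 0.05. Csf1r, the receptor that defines the monocyte and macrophage lineage, was detected in every library at 659, 268 and 279.5 CPM in untreated, 178, 254 and 261.5 in LPS and 311, 419.7 and 407.5 in octanal replicates 1, 2 and 3. Ly6c2, which marks classical monocytes, stood at 168, 2.815 and 249 CPM in the untreated libraries and at 0.387 to 7.9 CPM in the other 6. Markers of other leukocytes were present too and moved with the groups. The summed level of 12 neutrophil marker genes was 13040 to 25570 CPM in untreated, 1835 to 2232 in LPS and 5902 to 13080 in LPS with octanal libraries. The T cell marker genes summed to 660 to 1962, 3024 to 4020 and 1874 to 2883 CPM in the same order, the 11 classical monocyte marker genes to 7701 to 17470, 2436 to 3505 and 5265 to 8058 CPM, and the 18 macrophage marker genes to 3669 to 4751, 2181 to 3182 and 3100 to 3377 CPM. Macrophage markers had no library at 0 counts, and Epx of eosinophils was at 0 in all 3 LPS libraries. In such bulk samples fewer cells of a type and less RNA per cell cannot be told apart.

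Because the MiT-TFE factors recognise CACGTG sites, RefSeq promoters (GRCm38.p6; 300 bases each, 250 before and 50 after the gene's start) were searched for TCACGTGA, the core of the CLEAR element, and for the CACGTG within it. Both motifs read the same on both strands, and every TCACGTGA also counts as a CACGTG. Promoters were listed for 31 of the 38 members. TCACGTGA was found in 5 of these 31 genes (16.1%), against 304 of 27025 genes (1.12%) with a listed promoter. CACGTG was found in 8 of 31 members (25.8%) and in 2187 of the 27025 genes (8.09%). The 5 members are shown because their promoters hold the letters the factors are known to bind. They encode the catalytic A subunit of V1 (Atp6v1a), the d1 and e subunits of V0 (Atp6v0d1, Atp6v0e), alpha-galactosidase A (Gla) and the cation channel TRPML1 (Mcoln1). Each line gives 100 bases 5′ to 3′ on the gene's strand, with the motif in capitals.
Atp6v1a, chr16:44139338-44139437, minus strand: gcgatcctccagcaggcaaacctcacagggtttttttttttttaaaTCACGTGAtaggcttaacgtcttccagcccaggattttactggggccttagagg
Atp6v0d1, chr8:105566045-105566144, minus strand: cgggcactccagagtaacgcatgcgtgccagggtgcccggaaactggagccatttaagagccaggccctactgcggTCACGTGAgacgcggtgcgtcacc
Gla, chrX:134601156-134601255, minus strand: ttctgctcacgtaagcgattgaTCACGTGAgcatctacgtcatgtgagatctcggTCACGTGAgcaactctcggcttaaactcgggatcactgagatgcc
Atp6v0e, chr17:26676316-26676415, plus strand: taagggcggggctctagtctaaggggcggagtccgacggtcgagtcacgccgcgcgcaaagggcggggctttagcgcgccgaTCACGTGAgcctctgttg
Mcoln1, chr8:3500427-3500526, plus strand: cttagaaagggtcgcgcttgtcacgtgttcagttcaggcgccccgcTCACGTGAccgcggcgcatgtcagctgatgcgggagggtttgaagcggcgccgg
The first motif base lay at position -132 from the RefSeq start of Atp6v1a, -4 of Atp6v0d1, 3 of Atp6v0e and -46 of Mcoln1, and at -228 and -195 for the pair of copies in Gla (the base at the start is 1 and the base before it is -1). RefSeq starts can differ from the ends of the GENCODE gene spans. The printed windows of Atp6v1a and Atp6v0e lay wholly inside those spans (44085402 to 44139705 and 26663231 to 26699647). CACGTG without the longer motif occurred in Atp6v0b, Lamp1 and Glb1, and Lamp1 held 4 copies between positions -61 and -15. A match describes these letters in this window and is not a measured binding site.

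Lysosomal transcripts were lower after LPS across nearly every class of member. Against untreated cells, 30 of the 38 members fell, 1 rose (Atp6v0a2, a V-ATPase a-subunit isoform) and 7 were not called. Over all tested genes 17.6% were called lower and 15.2% higher. The median log2 fold change of the members was -0.77, against 0.01 over all tested genes. At least 2-fold falls were called for 10 of the 38 members and for 1577 of the 15447 tested genes (10.2%). The largest falls were those of Atp6v0d2, Gpnmb and Atp6v0a1. Together the 38 members took 22850 to 34620 CPM in untreated, 9021 to 13840 in LPS and 18660 to 26280 in LPS with octanal libraries, with all 3 LPS libraries below the others and untreated replicate 2 within the octanal range. In the same comparison 11 of 12 neutrophil, 8 of 11 classical monocyte and 7 of 18 macrophage marker genes fell while 9 of 9 tested T cell marker genes rose, and their part in the members' values was not tested.

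Within a group most members were lowest in the same library. Untreated replicate 2 was the lowest untreated library in 36 of 38 members, LPS replicate 1 the lowest LPS library in 32, and octanal replicate 1 the lowest of its group in 29. Of the 31 calls after LPS, 15 held in each of 9 refits that left out 1 library: Atp6v1a, Atp6v1b2, Atp6v0a1, Atp6v0d2, Atp6ap2, Lamp2, Npc1, Npc2, Hexa, Gusb, Man2b1, Psap, Gm2a, Mitf and Gpnmb. The number of members that fell was 16 without LPS replicate 1, 22 and 24 without LPS replicates 2 and 3, 22, 33 and 20 without untreated replicates 1, 2 and 3, and 31, 27 and 27 without octanal replicates 1, 2 and 3. Calls over all genes moved too: 2719 genes fell with every library, and 1624, 2004 and 1858 without LPS replicates 1, 2 and 3. Without untreated replicates 1, 2 and 3 they were 2136, 3040 and 2387, and without octanal replicates 1, 2 and 3 they were 2781, 2572 and 2519. The direction of every called member stayed the same in each refit.

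**Figure D1:**
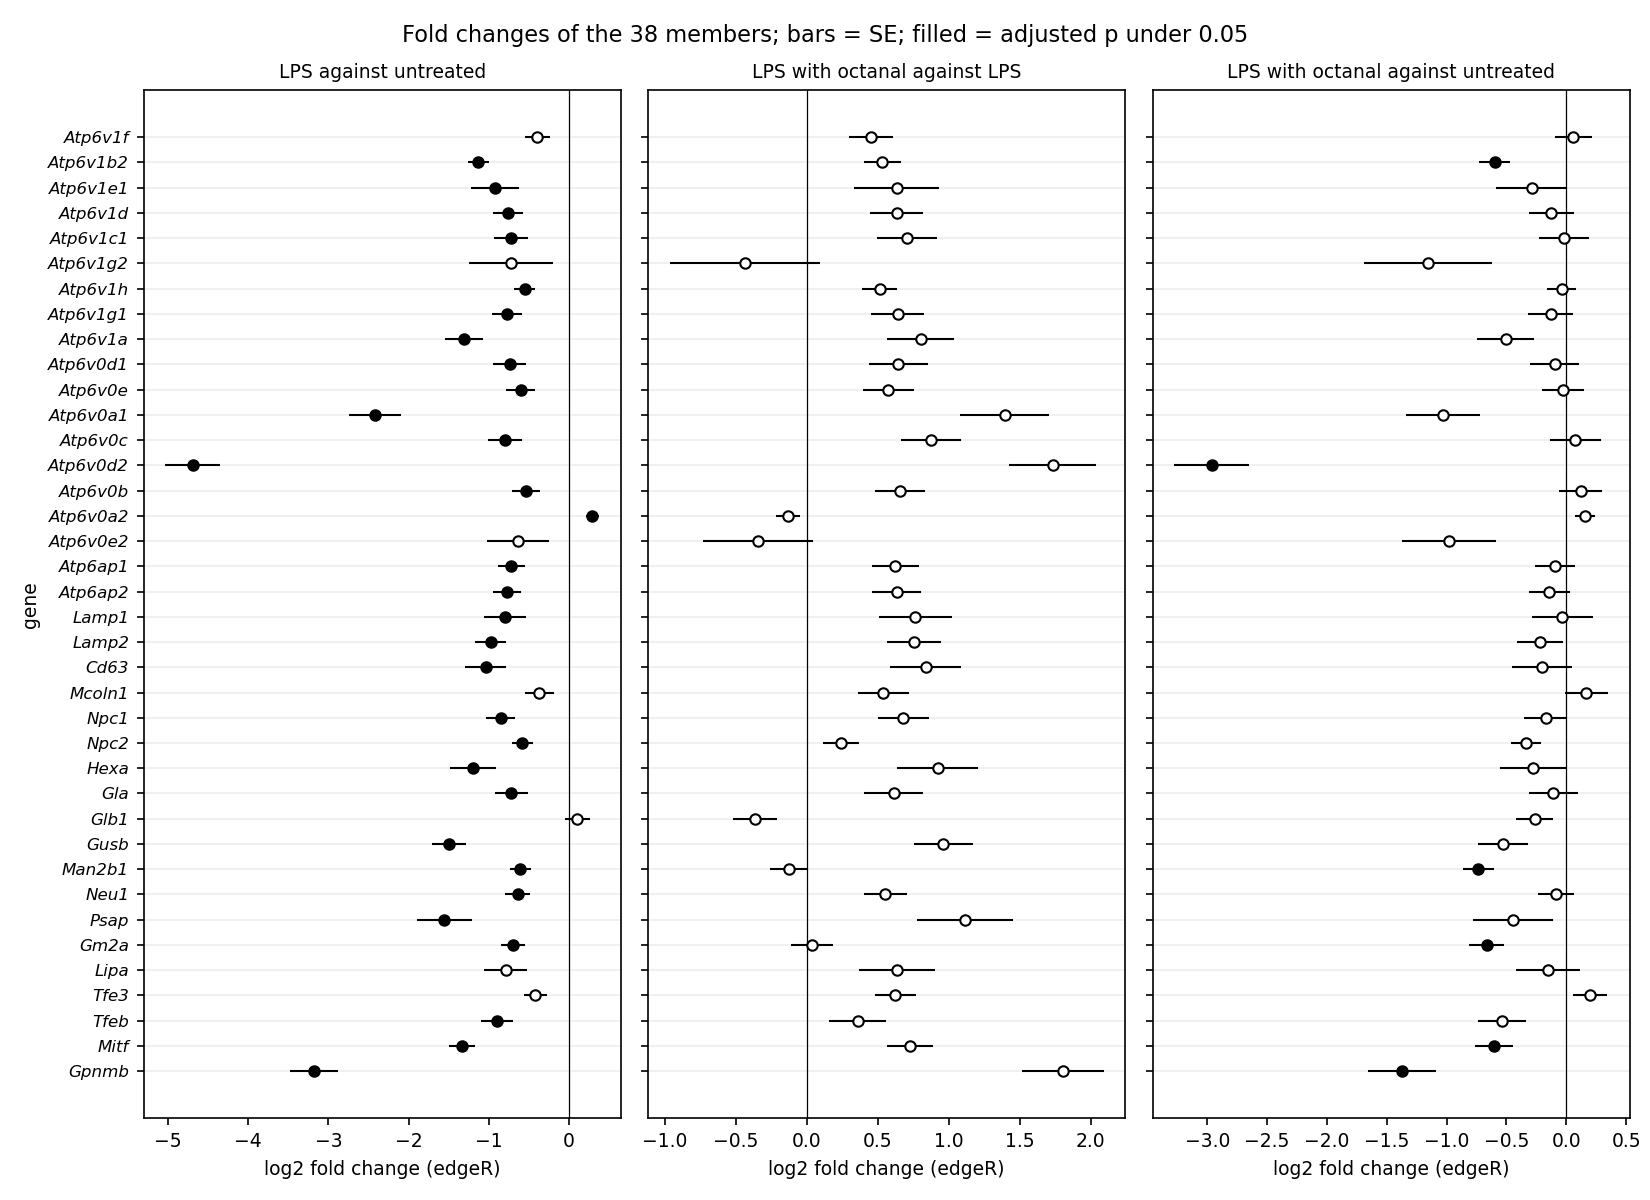
Log2 fold changes of the 38 members (x axis) from edgeR in the 3 comparisons, with bars of 1 SE and filled points where the adjusted p was under 0.05. In the left panel 30 filled points lie below 0 and 1 above; in the middle panel 33 of 38 points lie above 0 and none is filled; in the right panel 6 filled points lie below 0. The panels share libraries and have separate x scales.

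With octanal after LPS most members stood above their level with LPS alone, but no single gene passed the test. edgeR called 0 of the 38 members and 0 (0%) of all tested genes, and the smallest adjusted p among members was 0.051, for Gpnmb. At an unadjusted p under 0.05, 29 members were higher (13.6% of all genes) and 1, Glb1, was lower (8.69% of all genes). All 3 octanal libraries lay above all 3 LPS libraries in 30 members (18.3% of all genes), and in 0 members did they all lie below (19.9%). The median log2 fold change was 0.63 for the members and -0.05 for all tested genes, with 33 members above 0 and 5 below: Atp6v1g2, Atp6v0a2, Atp6v0e2, Glb1 and Man2b1. The call depended on the tool: DESeq2's Wald test called 26 members higher (9.02% of all genes) and 0 lower (2.63%), edgeR on the 6 libraries alone called 15 higher (6.35%) and 0 lower (2.92%), and limma-voom called 0 in each direction (0% and 0% of all genes). All 12 neutrophil marker genes had positive values in this comparison (median 1.92), all 9 tested T cell genes and all 10 B cell genes had negative ones (medians -0.69 and -0.77), and 13 of 18 macrophage marker genes were negative. Their part in the members' values was not tested.

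Against untreated cells, LPS with octanal left 6 members lower and 0 higher. The 6 were Atp6v0d2, Gpnmb, Man2b1, Atp6v1b2, Gm2a and Mitf, and Atp6v0d2 and Gpnmb fell at least 2-fold. Among all tested genes 6.03% were called lower, 2.63% higher and 4.18% lower by at least 2-fold. The median log2 fold change of the members was -0.19, against -0.01 over all genes. Of these calls only that of Atp6v0d2 held in each refit that left out 1 library. The count was 2, 9 and 4 without untreated replicates 1, 2 and 3, 6, 4 and 4 without LPS replicates 1, 2 and 3, and 2, 1 and 2 without octanal replicates 1, 2 and 3. Over all genes 932 were called lower with every library. In the same order of refits 408, 1332 and 779, then 646, 554 and 562, then 471, 184 and 488 were called lower. The LPS libraries enter the first and second comparison and the untreated libraries the first and last, so each gene's values are given side by side below and no overlap between comparisons is counted.

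In the V1 sector, the part of the pump that splits ATP, 7 of 9 genes fell after LPS, beside 17.6% of all tested genes. The median log2 fold change was -0.76 for the V1 genes and 0.01 for all tested genes. Atp6v1a (ENSMUSG00000052459; GRCm38 chromosome 16, 44085402 to 44139705, minus strand) encodes the catalytic A subunit. It stood at 944, 714 and 1110 CPM in untreated replicates 1, 2 and 3, at 278, 397 and 439 in the LPS replicates and at 502, 751 and 692 in the octanal replicates. Each LPS library lay below every other library, and untreated replicate 2 lay within the octanal range. The log2 fold change was -1.31 (adjusted p = 0.0052, SE 0.238) for LPS against untreated, 0.80 (adjusted p = 0.11, SE 0.236) for octanal against LPS alone and -0.51 (adjusted p = 0.2, SE 0.235) for LPS with octanal against untreated. Atp6v1b2 (ENSMUSG00000006273; GRCm38 chromosome 8, 69088646 to 69113711, plus strand), the B subunit isoform of most tissues, followed the same order with no overlap between any of the groups. Its levels were 735, 606.5 and 622 CPM in untreated, 272, 296 and 329 in LPS and 384, 454 and 460.3 in octanal replicates. It fell after LPS with a log2 fold change of -1.13 (adjusted p = 0.001, SE 0.132), and in LPS with octanal it was still lower than in untreated cells at -0.60 (adjusted p = 0.028, SE 0.131).

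The other V1 genes that fell after LPS had smaller changes. They were Atp6v1e1 at -0.92 (adjusted p = 0.042), Atp6v1g1 at -0.77 (0.016), Atp6v1d at -0.76 (0.017), Atp6v1c1 at -0.72 (0.029) and Atp6v1h at -0.55 (0.012), which encode stalk subunits and the regulatory H subunit. Atp6v1e1 rested on untreated replicate 3, at 305 CPM against 158 and 124 in the other two, and without it the log2 fold change was -0.46 (adjusted p = 0.098). Its call was lost in 8 of the 9 refits, with an adjusted p of up to 0.14. The calls of Atp6v1g1 and Atp6v1h were lost only without LPS replicate 1 (adjusted p = 0.064 and 0.053), and that of Atp6v1d without it or untreated replicate 3 (0.074 and 0.051). Atp6v1c1 lost its call in 5 of the 9 refits, with an adjusted p of up to 0.11. Atp6v1f, a small subunit of the central rotor, had -0.40 (adjusted p = 0.081). Atp6v1g2, the G isoform known from neurons, was at 0.779 to 3.6 CPM in all libraries and was not called. Exons of Atp6v1g2 share 144 bases with those of Nfkbil1 on the opposite strand, so its few reads cannot be assigned with certainty. In octanal against LPS alone, 8 of the 9 V1 genes had all 3 octanal libraries above all LPS libraries, with log2 fold changes of 0.45 to 0.80. The same held for 18.3% of all tested genes.

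**Figure D2:**
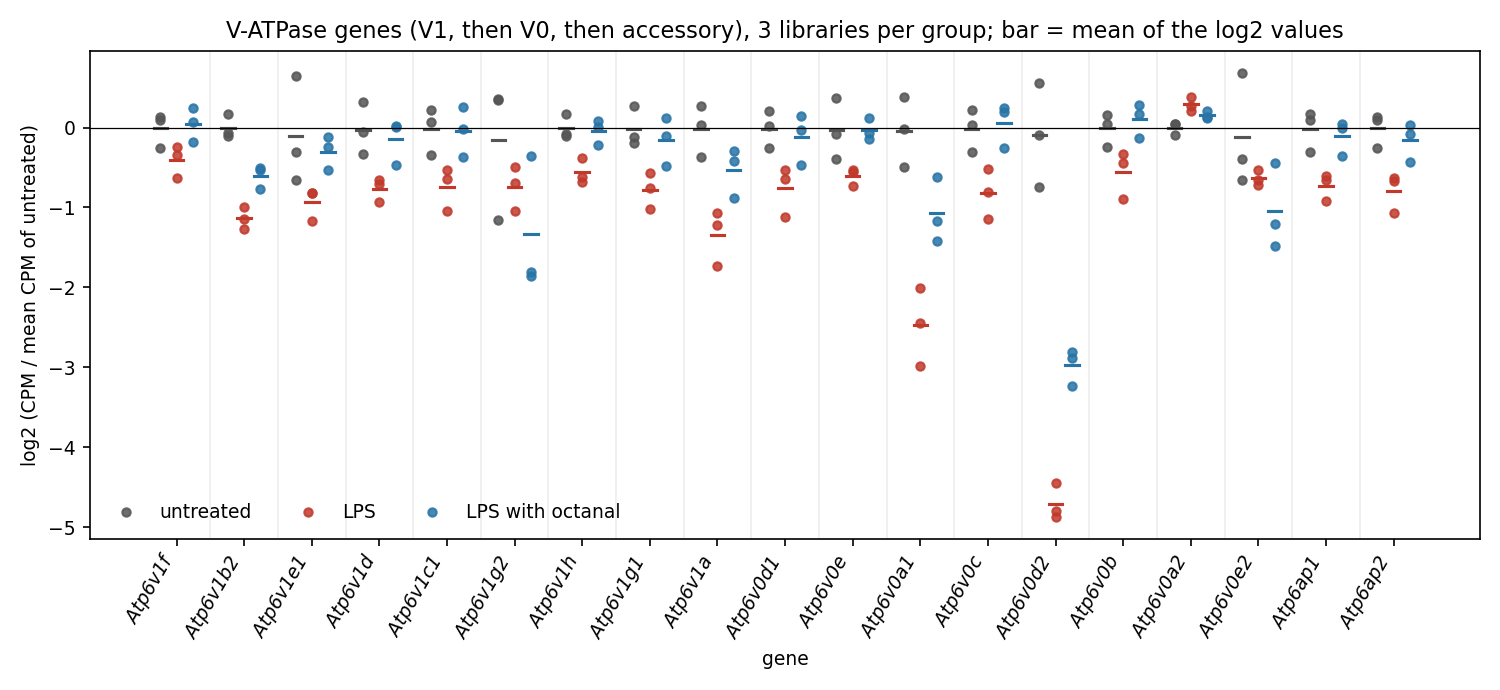
Level of each Atp6v and Atp6ap member in each library, with 1 point per library and a bar at the group mean. The y axis is log2 of its CPM over the mean CPM of the untreated libraries. Most genes sit below 0 in the LPS group and near 0 with octanal; Atp6v0d2 and Atp6v0a1 have the lowest LPS points, and Atp6v0a2 is the gene with LPS points above the untreated ones.

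The membrane V0 sector held the largest and the only opposite change among the Atp6 genes, both in genes with a paralog. Of its 8 Atp6v0 genes 6 fell and 1 rose after LPS, beside 17.6% called lower and 15.2% called higher among all tested genes. Atp6v0d2 (ENSMUSG00000028238; GRCm38 chromosome 4, 19876841 to 19922605, minus strand) encodes a d-subunit isoform known from osteoclasts and macrophages. It stood at 127, 51.5 and 81.1 CPM in untreated, 2.96, 3.98 and 3.10 in LPS and 12.4, 9.18 and 11.7 in octanal replicates, with no overlap between groups. The log2 fold change was -4.69 (adjusted p = 0.00041, SE 0.341) after LPS, which is a level 25.9-fold lower. With octanal it was 1.73 (adjusted p = 0.054, SE 0.309) against LPS and -2.96 (adjusted p = 0.002, SE 0.312) against untreated cells. Its ubiquitous paralog Atp6v0d1 (ENSMUSG00000013160; GRCm38 chromosome 8, 105524465 to 105566047, minus strand), whose promoter holds TCACGTGA at the start site, had smaller log2 fold changes; the difference between the paralogs was not tested. Atp6v0d1 stood at 330.2, 274 and 377 CPM in untreated, 151, 209 and 227 in LPS and 237, 361 and 319.8 in octanal replicates. The log2 fold change was -0.74 (adjusted p = 0.025, SE 0.206) after LPS, a call lost in 4 of 9 refits (adjusted p of up to 0.094), and 0.645 (adjusted p = 0.13, SE 0.206) in octanal against LPS alone. On the FPKM scale, which accounts for gene length, Atp6v0d2 amounted to 24.65, 12.1 and 13.8% of Atp6v0d1 in the untreated replicates, 1.25, 1.21 and 0.868% among the LPS replicates and 3.35, 1.67 and 2.365% in the octanal replicates.

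The a subunit forms the proton path with the ring, and its isoforms send the pump to different membranes. Atp6v0a1 (ENSMUSG00000019302; GRCm38 chromosome 11, 101009452 to 101063719, plus strand), the isoform known from lysosomes and synapses, stood at 163.5, 117 and 216 CPM in untreated, 20.9, 41.3 and 30.4 in LPS and 61.9, 73.45 and 108 in octanal replicates. The 3 groups did not overlap. Its log2 fold change was -2.42 (adjusted p = 0.0015, SE 0.323) after LPS, a level 5.36-fold lower, then 1.39 (adjusted p = 0.065, SE 0.313) and -1.03 (adjusted p = 0.072, SE 0.309) in the octanal comparisons against LPS and against untreated. Atp6v0a2 (ENSMUSG00000038023; GRCm38 chromosome 5, 124628576 to 124724455, plus strand), the isoform known from the Golgi and endosomes, stood at 80.9, 89.2 and 89.2 CPM in untreated, 113, 99.99 and 104 in LPS and 95.01, 100.1 and 93.8 in octanal replicates. It rose after LPS with a log2 fold change of 0.29 (adjusted p = 0.029, SE 0.0841), the smallest among the calls after LPS, and the call was lost in 8 of 9 refits, with an adjusted p of up to 0.17. In deposited FPKM the order of Atp6v0a1 and Atp6v0a2 turned over. Atp6v0a2 was 31.3, 49.8 and 27.8% of Atp6v0a1 in the untreated replicates, 362, 164 and 228% among the LPS replicates and 102, 86.5 and 57.6% in the octanal replicates. Any a-subunit isoform under another symbol was not followed.

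**Figure D3:**
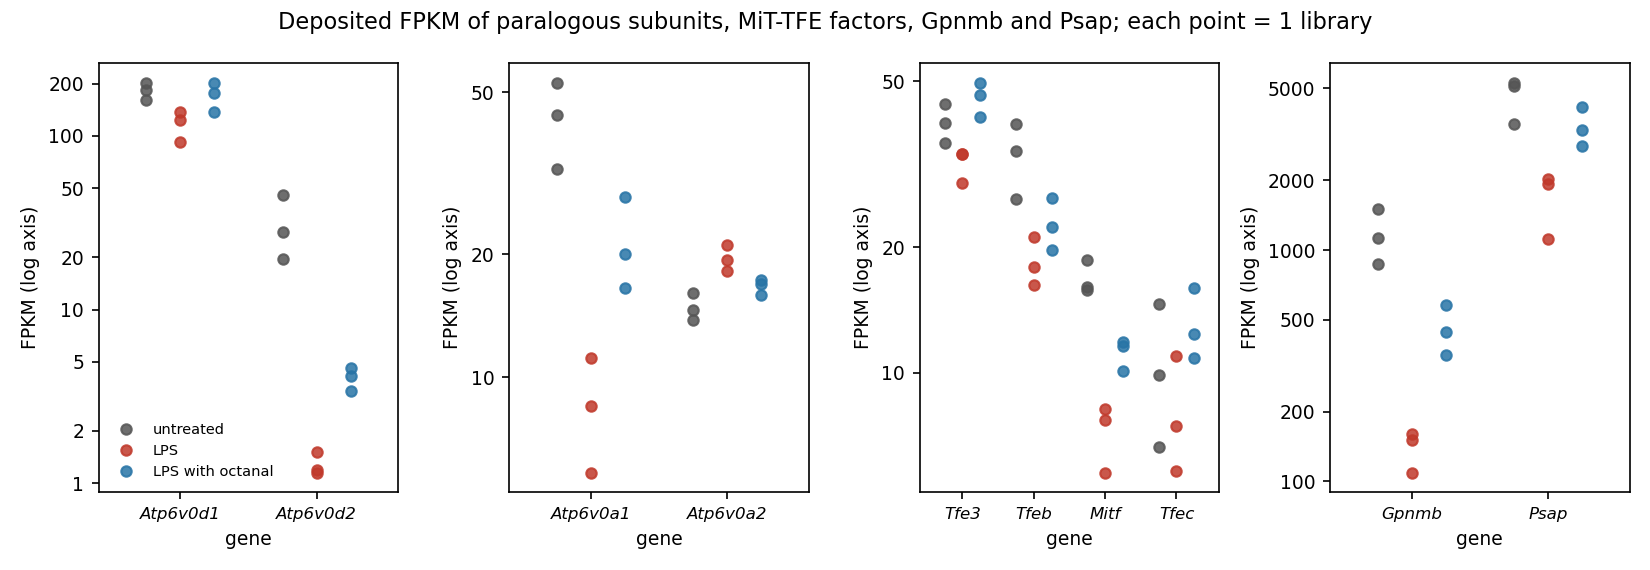
Deposited FPKM (fragment counts scaled for gene length and depth, log axis) of the paralog pairs Atp6v0d1 with Atp6v0d2 and Atp6v0a1 with Atp6v0a2, of the MiT-TFE factors with Tfec, and of Gpnmb and Psap, with 1 point per library. Atp6v0a1 lies above Atp6v0a2 in all untreated libraries and below it in all LPS libraries, and Atp6v0d2 is near 1 FPKM after LPS.

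The other V0 genes were the proteolipids of the ring and its small neighbours. Atp6v0c, Atp6v0e and Atp6v0b fell after LPS with log2 fold changes of -0.80 (adjusted p = 0.021), -0.60 (0.033) and -0.54 (0.047). These calls were lost in 4, 5 and 7 of the 9 refits that left out a library, with adjusted p of up to 0.083, 0.10 and 0.16. In LPS with octanal their log2 fold changes against LPS were 0.88, 0.57 and 0.66, each with all octanal libraries above all LPS libraries, and 0.08, -0.03 and 0.12 against untreated cells. Atp6v0e2, an isoform of the e subunit, was at 2.77 to 12.4 CPM and was not called in any comparison. The accessory subunits Atp6ap1 and Atp6ap2, which help to assemble the pump, fell after LPS with log2 fold changes of -0.72 (adjusted p = 0.013) and -0.77 (0.011), and the call of Atp6ap1 was lost only without LPS replicate 1 (adjusted p = 0.062). Against LPS they had 0.62 and 0.63 in LPS with octanal (adjusted p = 0.088 and 0.092).

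Among the proteins of the lysosomal membrane and of lipid export 5 of 6 genes fell after LPS, beside 17.6% of all tested genes. All 6 had every octanal library above every LPS library, as did 18.3% of all tested genes. Lamp1, the abundant glycoprotein of the inner membrane face, stood at 1922, 1189 and 1809 CPM in untreated, 667, 1042 and 1123 in LPS and 1319, 1837 and 1653 in octanal replicates. Its log2 fold change after LPS was -0.80 (adjusted p = 0.043, SE 0.258), a call lost in 7 of 9 refits (adjusted p of up to 0.13), and the octanal libraries lay within the untreated range. Lamp2, the receptor of chaperone-mediated autophagy, had 562, 406 and 584 CPM in untreated, 209, 279.7 and 301 in LPS and 379, 460.5 and 494.5 in octanal replicates. It fell after LPS with a log2 fold change of -0.975 (adjusted p = 0.0072, SE 0.192) and had 0.76 (adjusted p = 0.08, SE 0.191) in octanal against LPS alone. Cd63, a tetraspanin of late endosomes and exosomes, had 647, 535 and 812 CPM in untreated, 214, 357 and 399 in LPS and 469.9, 668 and 596 in octanal replicates. The fall after LPS was -1.04 (adjusted p = 0.016, SE 0.254) on the log2 scale and missed the threshold without untreated replicate 3 (adjusted p = 0.051).

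Mcoln1 encodes TRPML1, the lysosomal calcium release channel, and its promoter holds TCACGTGA. It was the member of this class that LPS did not change by the test. Mcoln1 stood at 107, 94.7 and 135 CPM in untreated, 72.2, 88.7 and 99.4 in LPS and 101, 142 and 135 in octanal replicates, so that LPS replicate 3 lay within the untreated range. The log2 fold change was -0.37 (adjusted p = 0.14, SE 0.181) after LPS and 0.54 (adjusted p = 0.14, SE 0.182) in octanal against LPS alone. Npc1 and Npc2 hand cholesterol out of the lysosome, and both fell after LPS. Npc1 had 383, 338 and 492 CPM in untreated, 189, 243 and 241 in LPS and 295, 387 and 395 in octanal replicates, with log2 fold changes of -0.85 (adjusted p = 0.0097, SE 0.181) after LPS and 0.68 (adjusted p = 0.087, SE 0.18) against LPS. Its exons share 511 bases with those of Rmc1 on the opposite strand. Npc2, the soluble partner, had 791, 630 and 745 CPM in untreated, 494, 465.5 and 489.6 in LPS and 635, 542 and 538 in octanal replicates. It fell after LPS with -0.58 (adjusted p = 0.011, SE 0.127) and had a smaller value than Npc1 in octanal against LPS alone, 0.24 (adjusted p = 0.29, SE 0.127); the difference between both genes was not tested.

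The glycosidases strip sugars from glycolipids and glycoproteins, and 5 of 6 fell after LPS, beside 17.6% of all tested genes. Gusb, beta-glucuronidase, had the largest change of the class. It stood at 331.5, 211 and 239 CPM in untreated, 75.8, 102 and 99.6 in LPS and 142, 206 and 194 in octanal replicates, with no overlap between groups. The log2 fold change was -1.49 (adjusted p = 0.002, SE 0.211) after LPS, 0.96 (adjusted p = 0.062, SE 0.209) for octanal against LPS alone and -0.53 (adjusted p = 0.14, SE 0.207) against untreated. Hexa, the alpha subunit of beta-hexosaminidase that is lost in Tay-Sachs disease, had 613, 359 and 563.5 CPM in untreated, 144.5, 262.5 and 262 in LPS and 324.5, 487 and 456 in octanal replicates. LPS replicate 1 was the lowest at 144.5 CPM, and the log2 fold change after LPS was -1.20 (adjusted p = 0.015, SE 0.286). Gla, whose promoter holds a pair of TCACGTGA copies and whose loss causes Fabry disease, had 220.3, 189 and 249.6 CPM in untreated, 99.9, 137 and 163 in LPS and 161, 236.5 and 214 in octanal replicates. It fell after LPS with -0.72 (adjusted p = 0.028, SE 0.205), a call lost in 4 of 9 refits (adjusted p of up to 0.095), and octanal replicate 1 overlapped the LPS libraries. Neu1, the lysosomal sialidase, had 178, 142.5 and 185 CPM in untreated, 99.1, 118 and 107 in LPS and 128, 170 and 178 in octanal replicates. Its fall of -0.64 (adjusted p = 0.015, SE 0.153) was not called without LPS replicate 1 or 3 (adjusted p of up to 0.067).

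Man2b1 and Glb1 were the glycosidases with negative values in octanal against LPS alone. Man2b1, the lysosomal alpha-mannosidase, stood at 381, 286 and 313 CPM in untreated, 229, 190.3 and 224 in LPS and 189, 189 and 211 in octanal replicates. The LPS and octanal libraries overlapped and both lay below all untreated ones. Its log2 fold change was -0.61 (adjusted p = 0.01, SE 0.131) after LPS, -0.13 (adjusted p = 0.59, SE 0.13) for octanal against LPS alone and -0.73 (adjusted p = 0.015, SE 0.131) against untreated. Without octanal replicate 2 the last value was -0.71 and was not called (adjusted p = 0.071). Glb1, the beta-galactosidase that serves as a senescence stain, had 23.8, 21.1 and 25.7 CPM in untreated, 24.6, 21.4 and 29.7 in LPS and 19.8, 21.7 and 17.25 in octanal replicates. It was not called in any comparison, with log2 fold changes of 0.10 (adjusted p = 0.64, SE 0.156), -0.37 (adjusted p = 0.21, SE 0.156) and -0.26 (adjusted p = 0.3, SE 0.156) in the order given for Man2b1. Exons of Glb1 share 165 bases with Tmppe on the same strand, and Tmppe had 6587 counts in all against 6988 for Glb1, so reads may be split between them.

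Psap had the highest FPKM of the members, and all 3 genes of the activator and lipase class had their LPS libraries below every untreated library. The latter held for 3831 of the 15447 tested genes. Psap (ENSMUSG00000004207; GRCm38 chromosome 10, 60277627 to 60302597, plus strand) encodes the precursor of the saposins, which present sphingolipids to hydrolases. It stood at 14750, 9562 and 15990 CPM in untreated, 2984, 5269 and 5437 in LPS and 7906, 11960 and 9771 in octanal replicates. LPS replicate 1 was the lowest of all 9, and untreated replicate 2 lay within the octanal range. The log2 fold change was -1.56 (adjusted p = 0.011, SE 0.343) after LPS, 1.11 (adjusted p = 0.12, SE 0.339) for octanal against LPS alone and -0.44 (adjusted p = 0.42, SE 0.336) against untreated. Gm2a, the activator that lifts GM2 ganglioside for Hexa, had 123, 85.6 and 93.6 CPM in untreated, 59.1, 71.3 and 55.25 in LPS and 65.2, 63.2 and 61.7 in octanal replicates. It fell after LPS with -0.70 (adjusted p = 0.0093, SE 0.148) and stayed there with octanal, at 0.035 (adjusted p = 0.9, SE 0.147) against LPS and -0.67 (adjusted p = 0.029, SE 0.148) against untreated. The last call was lost in 4 of 9 refits, with an adjusted p of up to 0.099. Lipa, the acid lipase that frees cholesterol and fatty acids, had 1539, 875.5 and 1177 CPM in untreated, 496, 800 and 784 in LPS and 826, 1266 and 1139 in octanal replicates. Its value after LPS was -0.79 (adjusted p = 0.051, SE 0.27), just short of a call; DESeq2's Wald test and limma-voom called it, at -0.81 and -0.77.

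**Figure D4:**
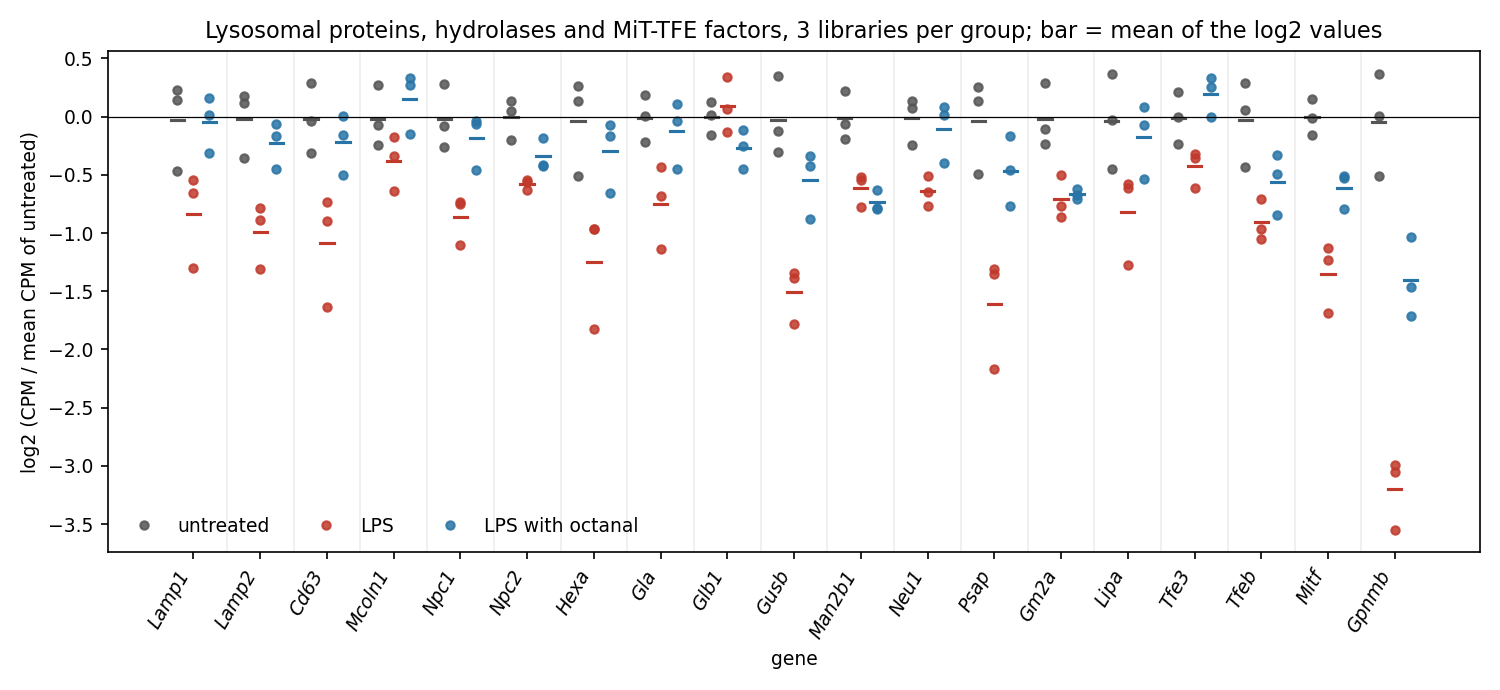
Level of the 19 members listed by name in each library, as log2 of CPM over the mean CPM of the untreated libraries (y axis), with 1 point per library and a bar at the group mean. Gpnmb has the lowest LPS points; for Man2b1 and Gm2a the LPS and octanal points overlap below the untreated ones, and for Glb1 the untreated points overlap both other groups.

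Of the transcription factor genes 2 of 3 fell after LPS, beside 17.6% of all tested genes. The log2 fold changes of the 3 factor genes ran from -1.33 to -0.42. Mitf (ENSMUSG00000035158; GRCm38 chromosome 6, 97807052 to 98021349, plus strand) stood at 99.1, 79.7 and 88.5 CPM in untreated, 27.6, 40.8 and 37.9 in LPS and 51.4, 62.5 and 62.02 in octanal replicates. The 3 groups did not overlap. Its log2 fold change was -1.33 (adjusted p = 0.0012, SE 0.162) after LPS, 0.73 (adjusted p = 0.064, SE 0.16) in octanal against LPS alone and -0.60 (adjusted p = 0.05, SE 0.159) against untreated, the last just under the threshold and lost in 7 of 9 refits (adjusted p of up to 0.15). Tfeb (ENSMUSG00000023990; GRCm38 chromosome 17, 47737030 to 47792419, plus strand) had 80.9, 57.7 and 95.1 CPM in untreated, 37.6, 47.8 and 39.9 in LPS and 43.3, 62.1 and 55.2 in octanal replicates. It fell after LPS with -0.90 (adjusted p = 0.012, SE 0.201), not called without LPS replicate 1 (adjusted p = 0.054), and its octanal libraries overlapped both other groups, with 0.36 (adjusted p = 0.32, SE 0.2) against LPS. Tfe3 (ENSMUSG00000000134; GRCm38 chromosome X, 7762560 to 7775202, plus strand) had 139.5, 119 and 162 CPM in untreated, 91.6, 112 and 109.8 in LPS and 139.6, 167 and 176.5 in octanal replicates. All LPS libraries lay below all others, yet the log2 fold change of -0.42 (adjusted p = 0.05, SE 0.143) after LPS was just above the threshold, and DESeq2's Wald test called it at -0.45. In octanal against LPS alone it was 0.62 (adjusted p = 0.07, SE 0.144). These are transcript levels, and the activity of the factors, which depends on their phosphorylation and place in the cell, was not measured.

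Per length, Tfe3 had the highest FPKM of the family in each of the 9 libraries. Tfe3 stood at 39.6, 35.6 and 44.2 FPKM in untreated, 28.5, 33.45 and 33.4 in LPS and 41.1, 46.4 and 49.7 in octanal replicates, against 33.99, 26.1 and 39.55, 16.25, 21.1 and 17.9 and 19.7, 26.2 and 22.4 FPKM for Tfeb. Mitf amounted to 54.96, 60.7 and 40.6% of Tfeb in FPKM in the untreated replicates, 35.4, 38.7 and 43.01% among the LPS replicates and 51.1, 45.3 and 51.7% in the octanal replicates, and the untreated range held all other libraries except LPS replicates 1 and 2. Tfec, the family member that is most restricted to macrophages, is not among the 38 and had 14.65, 9.89 and 6.645 FPKM in untreated, 5.81, 7.465 and 10.96 in LPS and 10.8, 15.9 and 12.4 in octanal replicates, and it was not called in any comparison.

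Gpnmb (ENSMUSG00000029816; GRCm38 chromosome 6, 49036546 to 49070929, plus strand), a transmembrane glycoprotein known as a MITF target and a marker of lipid-laden macrophages and osteoclasts, had the largest change of the members listed by name. It stood at 6119, 3334 and 4747 CPM in untreated, 405, 569 and 594 in LPS and 1713, 2311 and 1447 in octanal replicates. No group overlapped another, and the octanal libraries lay between the other two groups. After LPS the level was 9.06-fold lower, with a log2 fold change of -3.18 (adjusted p = 0.00063, SE 0.304). The value was 1.80 (adjusted p = 0.051, SE 0.288) for octanal against LPS alone and -1.38 (adjusted p = 0.023, SE 0.284) against untreated, and the last call was lost in 4 of 9 refits (adjusted p of up to 0.08). In untreated cells Gpnmb had the second highest mean FPKM of the 38 members at 1168, behind Psap at 4638 and ahead of Lamp1 at 667, while Glb1, Atp6v0e2 and Atp6v1g2 were the lowest at 8.75, 3.94 and 2.40. Untreated FPKM of Gpnmb, 1512, 869 and 1122 in replicates 1, 2 and 3, did not reach those of Psap, 5112, 3496 and 5306.

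Other genes of the lysosomal pathway were followed in lists. Of 30 further hydrolases and cofactors 22 fell and 0 rose after LPS, 10 of them at least 2-fold, with a median log2 fold change of -0.85. Over all tested genes 17.6% were called lower, 10.2% lower by at least 2-fold and 15.2% higher. Lgmn, an asparaginyl endopeptidase, fell by 1.98 on the log2 scale (adjusted p = 0.0014), Galns of keratan sulfate breakdown by 1.85 (0.0013), the phospholipase Pla2g15 by 1.41 (0.0017) and Galc of galactosylceramide breakdown by 1.38 (0.0024). In LPS with octanal against untreated 7 of the 30 were called, all lower, beside 6.03% lower and 2.63% higher over all tested genes. Among the 7 were Hyal1 at -1.85 (adjusted p = 0.006), Lgmn at -1.79 (0.0063), Pla2g15 at -1.13 (0.012) and the acid sphingomyelinase Smpd1 at -0.76 (0.017). Lgmn stood at 713.5, 368 and 419 CPM in untreated, 101.5, 138 and 139.7 in LPS and 164, 125 and 145 in octanal replicates, so the LPS and octanal libraries overlapped. The median of the 30 in octanal against LPS alone was 0.42, with 24 positive values and 0 calls.

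Of 21 further membrane proteins and transporters 12 fell and 3 rose after LPS, beside 17.6% lower and 15.2% higher over all tested genes. Among the endolysosomal cation channels of this list, Tpcn2 fell with a log2 fold change of -1.93 (adjusted p = 0.00062) and Tpcn1 rose with 0.88 (0.0054). Mcoln3 and Mcoln2, TRPML1 paralogs, fell with -3.64 (0.0061) and -2.22 (0.0087), and Tmem175 had -0.17 and was not called. Mcoln2, Mcoln3 and Tmem175 are named here after their values were seen. Tpcn2 stood at 106, 65.5 and 75.9 CPM in untreated, 20.8, 21.5 and 22.9 in LPS and 35.8, 33.8 and 36.4 in octanal replicates, and Tpcn1 at 31.8, 42.6 and 38.6, 76.6, 66.2 and 65.7 and 62.7, 48.3 and 43.3 CPM. The nucleoside transporter Slc29a3 fell with -1.95 (0.00096) and the cystine exporter Ctns with -0.92 (0.0014). Against untreated cells, LPS with octanal left Tpcn2 at -1.22 (adjusted p = 0.0051), Slc29a3 at -1.54 (0.0059), Ctns at -0.56 (0.024) and Mcoln3 at -2.74 (0.037), and 1 gene was higher, Tmem192 at 0.56 (0.043), which is named here after its value was seen. In that comparison 6.03% of all tested genes were called lower and 2.63% higher.

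Of 9 tested V-ATPase assembly genes 4 were lower and 1 higher after LPS. Over all tested genes 17.6% were called lower and 15.2% higher, the shares to set beside the counts after LPS in this and the next lists. Dmxl2 and Wdr7, which form the rabconnectin complex that joins V1 to V0, fell with log2 fold changes of -1.41 (adjusted p = 0.009) and -0.95 (0.0045), Vma21, an assembly chaperone, fell with -0.76 (0.015), and Dmxl1, a Dmxl2 paralog, rose with 0.25 (0.028). Dmxl2 stood at 268.5, 221 and 422 CPM in untreated, 81.04, 134 and 128 in LPS and 221, 308 and 367 in octanal replicates, and its octanal and untreated libraries overlapped. Dmxl1 stood at 88.3, 91.9 and 88.9, 107, 106 and 107 and 85.3, 92.1 and 89.2 CPM, with the 3 LPS libraries above all others. Of 17 genes that sort hydrolases to lysosomes 9 fell and 0 rose, led by Sort1, a sorting receptor, at -2.51 (0.0015) and Gnptab, which makes the mannose 6-phosphate tag, at -1.21 (0.0019). Both were still lower with octanal than in untreated cells, at -1.49 (0.025) and -1.01 (0.011). The list of 22 genes of nutrient sensing upstream of TFEB includes the TFEB family member Tfec. Of these 22 genes 8 fell and 1 rose after LPS. The Ragulator genes Lamtor4 and Lamtor3, which anchor mTORC1 to the lysosome, had -1.50 (0.0012) and -0.96 (0.001). Ppp3ca, the calcineurin subunit that dephosphorylates TFEB, had -0.93 (0.0023). In octanal against LPS alone none of these lists had a gene called by edgeR, and Lamtor4 had 0.97 (adjusted p = 0.057). At an unadjusted p under 0.05 that comparison had 5 of 9 assembly, 15 of 30 hydrolase, 10 of 21 membrane, 10 of 17 sorting and 11 of 22 nutrient sensing genes higher, and 1, 2, 2, 0 and 2 of them lower, beside 13.6% higher and 8.69% lower over all tested genes.

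**Figure D5:**
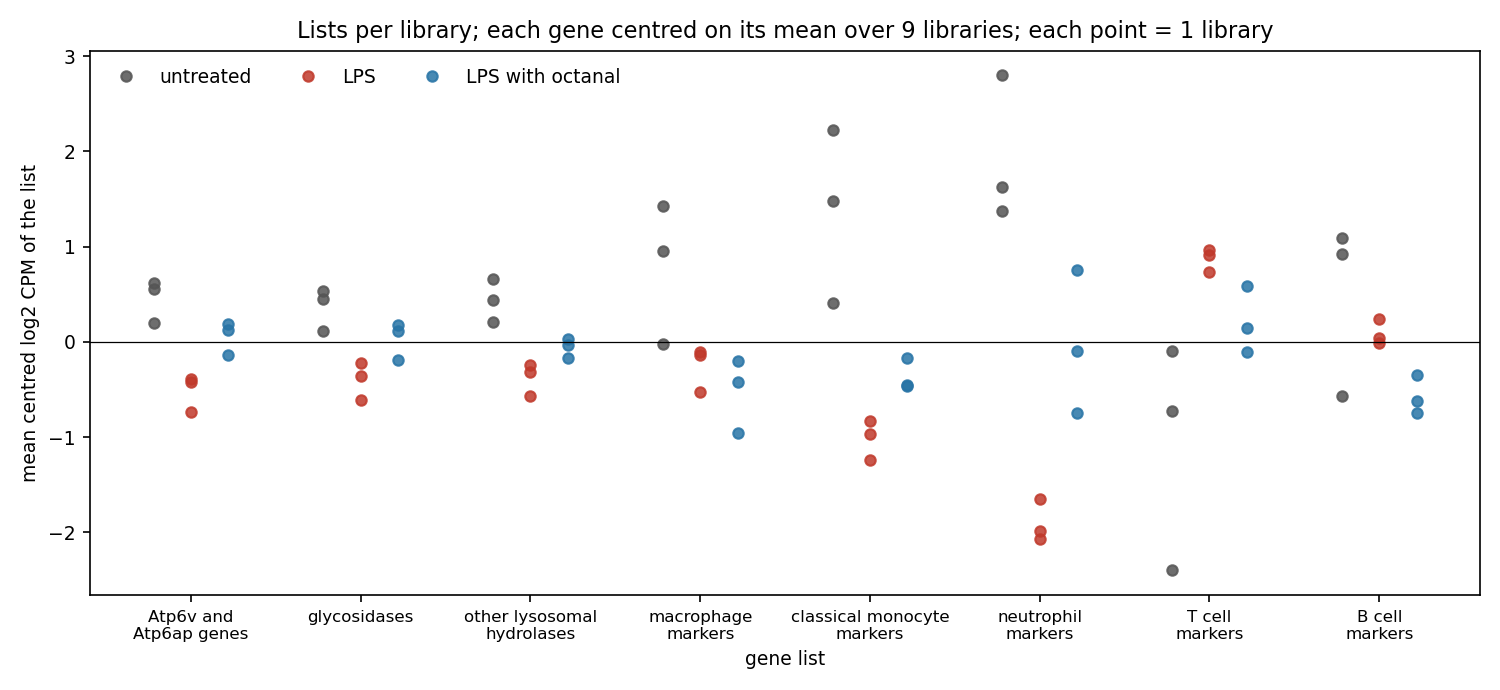
Mean log2 CPM of each gene list in each library, with every gene centred on its mean over the 9 libraries (y axis), and 1 point per library. The Atp6 genes, glycosidases and other hydrolases are lowest in the LPS group, macrophage markers overlap between the LPS and octanal libraries, and T cell markers are highest in the LPS group.

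The cell type marker lists differed between groups as well, some by more than the members and some by less. The 19 Atp6 genes spanned centred means of 0.20 to 0.62 in untreated, -0.73 to -0.39 in LPS and -0.14 to 0.19 in LPS with octanal libraries. Neutrophil markers spanned 1.37 to 2.80, -2.07 to -1.65 and -0.75 to 0.75 in the same order, classical monocyte markers 0.41 to 2.23, -1.24 to -0.83 and -0.47 to -0.17, and T cell markers -2.40 to -0.10, 0.73 to 0.96 and -0.11 to 0.58. Dendritic cell markers spanned -0.04 to 0.06, 0.02 to 0.29 and -0.46 to 0.38. Macrophage markers spanned -0.02 to 1.43 in untreated, -0.53 to -0.10 in LPS and -0.95 to -0.21 in LPS with octanal libraries, and with octanal against untreated cells 8 of 18 were called lower and 1, Adgre1, higher at 1.40 (adjusted p = 0.043; named after its value was seen). Cd68, a macrophage glycoprotein of the lysosomal membrane, stood at 1030, 595 and 851 CPM in untreated, 161, 234 and 239 in LPS and 406.5, 504 and 454 in octanal replicates, with log2 fold changes of -1.97 (adjusted p = 0.001) after LPS and 1.10 (0.058) in octanal against LPS alone. Mertk, a receptor for dying cells, stood at 60.8, 37.65 and 12.8, 4.785, 2.85 and 6.06 and 2.76, 1.45 and 3.03 CPM and had -3.02 (0.0055) and -0.92 (0.34) in the same comparisons. In the other lists, after LPS, 1 of 10 dendritic cell genes fell and 1 rose, 1 of 10 B cell genes rose, 3 of 8 NK cell genes rose, 4 of 6 tested eosinophil, basophil and mast cell genes fell, and edgeR called 0 of 8 erythroid genes (0 at an unadjusted p under 0.05). Over all tested genes 17.6% were called lower and 15.2% higher after LPS, and 6.03% lower and 2.63% higher with octanal against untreated. After LPS, median log2 fold changes were 0.43 for the dendritic cell, -0.74 for the B cell, 1.17 for the NK cell, -3.95 for the eosinophil, basophil and mast cell and -0.81 for the erythroid list. Of 6 melanocyte genes 5 were too low to test and Pmel rose with 1.02 (adjusted p = 0.029).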

How the data were processed

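The authors deposited whole-number counts per gene and library and, in the same table, FPKM values, which are fragments scaled for gene length and depth, both per the file headers. Per the submitters' processing notes the reads were handled on GRCm38; aligner, counting tool and any use of strand: not given in the sources used here. Of 22035 Ensembl identifiers 22021 matched GENCODE M21, which gave the positions and exon overlaps. There were 4735 unannotated loci, which stayed in the fit, and 10 lines of text without values were left out.

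Counts of all 9 libraries were fitted together in edgeR 4.0.16 (R 4.3.3) with a mean per group, TMM factors of 0.923 to 1.07 and filterByExpr by group, which kept 15447 genes and at least 99.9% of each library's counts. P-values of the quasi-likelihood test were adjusted by Benjamini-Hochberg over these genes, and calls needed an adjusted p under 0.05. All adjusted p are from this test unless another tool is named. CPM use the TMM-scaled totals. FPKM served for levels between genes and, as log2(FPKM + 1), for an alternative test in limma 3.58.1. DESeq2 1.42.0, limma-voom, other filters, other scalings and each library left out in turn were the other alternatives. The fit was tested on simulated data. Between replicates the chi-square of counts over genes divided by its degrees of freedom was 46.9 to 157, so none was taken as a repeat of another library.

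The members and lists were chosen with earlier results of these data known. Values per library were given for the 19 members listed by name and for Atp6 genes called with a change of at least 2-fold, together with genes of the same subunit. The other Atp6 genes were given by counts and ranges, with fold changes where called. From the other lists up to 4 genes of lowest p per comparison were named, except where said. Lgmn, Tpcn2, Tpcn1, Dmxl2, Dmxl1, Cd68 and Mertk were chosen among those for values per library after they were seen, and Csf1r, Ly6c2 and Tfec were named for their known roles. Promoters were shown where they hold TCACGTGA, and the last 25 bases of 34 of the 40 promoters occurred as written in a transcript of the gene.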

Additional observations from a re-analysis of the deposited data

How the results depend on the processing

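No member that was called changed direction under any alternative. Members that fell after LPS against untreated numbered 26 to 32 under the other tools, filters and scalings and 16 to 33 with 1 library left out, the lowest without LPS replicate 1. Over all genes 2030 to 3326 fell under the former, with 9384 to 21595 genes tested. With 1 library left out 1624 to 3040 genes fell, of 15767 to 15933 tested, again the fewest without LPS replicate 1. The single rise after LPS, of Atp6v0a2, was absent (0 members) with no filter, with the 6 libraries of both groups alone and with the replicate block, and the count was 0 to 1 with 1 library left out. For LPS with octanal against LPS the count of members that rose went from 0 to 3 with no filter, 4 with a filter at 10 CPM (36 members tested), 26 with DESeq2's Wald test, 15 with the 6 libraries alone, 2 without unannotated loci and 2 on log2 FPKM with a pseudocount of 0.1, and to 0 to 11 with 1 library left out, the highest without octanal replicate 1. Over all genes 271 of 21595 tested rose with no filter, 302 of 9384 at 10 CPM and 1394 of 15447 with DESeq2. With the 6 libraries alone 945 of 14885 rose, without unannotated loci 114 of 13454 and on that FPKM scale 149 of 11832. With 1 library left out 0 to 486 genes rose, again the most without octanal replicate 1 (15864 tested). For LPS with octanal against untreated the 6 members that fell became 1 with the 6 libraries alone, 2 with the replicate block and 1 to 9 with 1 library left out. Over all genes 254 of 14795 tested fell with the 6 libraries alone and 656 of 15447 with the replicate block. With 1 library left out 184 to 1332 genes fell. Replicate numbers appear in the sample titles but nothing ties equal numbers to each other, and deviations of equal-numbered libraries correlated at -0.09 to 0.179. With the replicate block 29 members fell after LPS and 0 were called between the LPS groups. Over all 15447 tested genes 2442 fell and 0 were called in the same comparisons. On log2 FPKM without TMM, with a pseudocount of 1, 3121 of the 11832 genes that test kept rose and 2045 fell after LPS, against 2353 and 2719 of 15447 by counts, and the median over all genes was 0.109 in place of 0.01. The members' median was then -0.65, with 29 lower and 1 higher. The cause of these shifts was not tested. Atp6v1g2, the member with the fewest counts, had 28 to 110 per library; no alternative varied the depth.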

Other observations

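Genes known from osteoclasts and lipid-laden macrophages, cells in which Gpnmb and Atp6v0d2 are typically abundant, mostly fell after LPS. Of 11 listed genes 8 could be tested, and 6 of them fell after LPS and 0 rose, with a median log2 fold change of -2.47. Over all tested genes 17.6% were called lower and 15.2% higher. Ctsk, the collagen-degrading cathepsin of osteoclasts, stood at 146, 89.2 and 107 CPM in untreated replicates 1, 2 and 3, at 12.97, 16.7 and 14.8 CPM in LPS and at 43.7, 36.5 and 37.5 CPM in octanal replicates, and no group overlapped another. Its log2 fold change was -2.94 (adjusted p = 0.00041) after LPS, 1.41 (adjusted p = 0.051) in octanal against LPS alone and -1.54 (adjusted p = 0.0034) against untreated. Trem2, a lipid-sensing receptor, stood at 58.7, 18.9 and 28.6 CPM in untreated, 0.952, 0.626 and 0.166 CPM in LPS and 4.12, 1.75 and 1.78 CPM in octanal replicates. Trem2 fell with -5.91 (adjusted p = 0.0012) after LPS, and LPS with octanal was at -3.79 (adjusted p = 0.011) against untreated. Fabp5, a fatty acid binding protein, fell with -2.70 (adjusted p = 0.00066) after LPS and was still at -2.13 (adjusted p = 0.004) with octanal against untreated. Acp5, tartrate-resistant acid phosphatase, was named after its values were seen: it ran from 91.6 to 199 CPM over all 9 libraries, with a log2 fold change of 0.16 (adjusted p = 0.68) after LPS.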
